A study of Mus musculus with 8 samples.

Results

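The genes described here encode the proteins of the cytosolic ribosome. They were chosen by symbol alone, as every gene named Rpl or Rps with a number and at most a closing a, x or l, plus Rplp0, Rplp1, Rplp2 and Rpsa, and symbols of pseudogenes (-ps) and of the Rps6k kinases were kept out. This gave 79 of the 15519 genes measured, 47 of the large subunit and 32 of the small subunit. GENCODE types 76 of them as protein coding and 3, Rpl32l, Rpl6l and Rps4l, as pseudogenes.

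The libraries held nuclear RNA from hippocampal pyramidal cells of wild-type mice. Living animals were imaged during navigation to find place cells, which fire at particular locations, and the nuclei of chosen cells were then marked with light and collected. The groups were Day 0 place cells, with 4 libraries, and Recurring place cells, also with 4. The labels do not define these classes further, and no age, sex or number of pooled nuclei is used here. Titles give a mouse number of its own to each library, with no other word on separate animals, so every p-value measures only the spread between these libraries.

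Depth ranged from 8374986 to 14887866 reads per library. Markers of the labelled cell type were read in both groups. All 14 CA1 pyramidal markers of the list were in the data, at a mean log2 level of 10.18 ± 0.47 in Day 0 and 10.12 ± 0.36 in Recurring libraries (SD, n = 4), with Pou3f1 at 0 reads in Day 0 replicate 4 and every other marker read in all 8 libraries. Levels below are normalized counts, which are reads divided by a size factor for the library, or log2 of the normalized count plus 1. Differences are Recurring minus Day 0 on that log2 scale and understate changes of low genes, and a gene's mean is called higher or lower on the same scale. A count of 0 allows up to 3 reads, for counting error only.

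A ribosome joins a small subunit, which reads the messenger RNA, to a large subunit, which forms peptide bonds. Each subunit is ribosomal RNA folded around proteins that are made in the cytoplasm, imported into the nucleus and assembled in the nucleolus, so the proteins are needed in matched amounts. Their messenger RNAs are short and abundant, start with a run of pyrimidines (the TOP motif) through which mTOR signalling controls their translation, and are mostly cytoplasmic, so nuclear RNA holds only part of them. In neurons they are also found in dendrites and axons, where local protein synthesis is linked to plasticity.

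The start sites of the members were read from RefSeq promoters of build GRCm38.p6, an earlier build than the one the authors used. Promoters were found for 58 of the 79 members. The runs of pyrimidines searched were CTTTC, the related run CTTTT and, shifted against both, TCTTT, and matches could overlap each other. A match lay on the gene's strand within 20 bases of the annotated start in 23 of 69 member promoters, or 33.3% (95% exact binomial interval 22.4 to 45.7), against 11.1% of all 32851 promoters. The interval treats promoters as independent, though some genes have several, with windows that can overlap. By gene, 23 of the 58 members held such a match on their strand, against 12.8% of all genes with a promoter. On both strands the shares of promoters were 37.7% and 20.3%. The windows below show how such runs sit in members that recur in the results, with the matched letters in capitals. Each holds the 20 bases before the start and the 20 from it on, 5′ to 3′ on the gene's strand. The first 4 hold a match. The last 2, of a gene with a higher mean in Recurring libraries and a gene with a lower one, hold none. Neither of these genes passed the test described below. Rps6 is at chr4:86857348-86857387 (minus strand), Rpl4 at chr9:64173367-64173406 (plus), Rps27 at chr3:90213629-90213668 (minus), Rpl38 at chr11:114668560-114668599 (plus), Rpl36a at chrX:134585634-134585673 (plus) and Rpl9 at chr5:65391412-65391451 (minus).
Rps6: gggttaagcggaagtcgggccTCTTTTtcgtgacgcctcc
Rpl4: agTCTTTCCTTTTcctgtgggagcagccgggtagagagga
Rps27: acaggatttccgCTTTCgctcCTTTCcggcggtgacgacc
Rpl38: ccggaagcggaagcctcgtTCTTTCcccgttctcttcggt
Rpl36a: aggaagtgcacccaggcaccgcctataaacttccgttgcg
Rpl9: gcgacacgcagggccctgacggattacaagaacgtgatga
The Rpl38 match spans the annotated start, that of Rps6 begins just after it, those of Rpl4 lie before it, and Rps27 has one on each side. A match describes these letters only.

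Ribosomal protein genes took a small part of the reads, over overlapping ranges, in both groups. Their share was 0.311%, 0.259%, 0.207% and 0.414% of reads in Day 0 replicates 1 to 4, and 0.215%, 0.369%, 0.253% and 0.418% in Recurring replicates 1 to 4. The highest and the next highest library were in different groups, and the groups overlapped over nearly their whole range. The means were 0.298% ± 0.0884 and 0.314% ± 0.0954 (SD, n = 4), a difference of 0.0163 percentage points, less than the SD of either group. Its sign rested on single libraries: leaving out Recurring replicate 4 gave -0.0185, Day 0 replicate 3 -0.0140 and Recurring replicate 2 -0.0020. Leaving out Day 0 replicate 2 gave 0.0033, Recurring replicate 3 0.0365, Recurring replicate 1 0.0491 and Day 0 replicate 4 0.0550. Of this, the large subunit took 0.182% ± 0.0619 and 0.182% ± 0.0493, and the small subunit 0.116% ± 0.0279 and 0.132% ± 0.0473. In bulk RNA of this kind, fewer cells of a type and less RNA per cell cannot be told apart.

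The members were unevenly read, and the number missed differed widely between libraries of the same group. A read was found in all 8 libraries for 57 members, in 7 for 13, in 6 for 6 and in 5 for 3. Among the 77 members that passed the filter, which asked 4 or more libraries for a normalized count of at least 10, the share read in all 8 was 74.0%, against 54.4% of all 11078 genes that passed. The members with no read numbered 5, 1, 6 and 6 in the Day 0 replicates and 10, 4, 1 and 1 in the Recurring replicates. Recurring replicate 1, the deepest library, thus missed the most members, and Recurring replicates 3 and 4, among the shallowest, missed 1 each. Genes of any kind with a read numbered 10904 in Recurring replicate 1 and 10718 in Day 0 replicate 4, the lowest counts of the 8, and 13059 and 11837 in Recurring replicates 3 and 4.

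**Figure D1:**
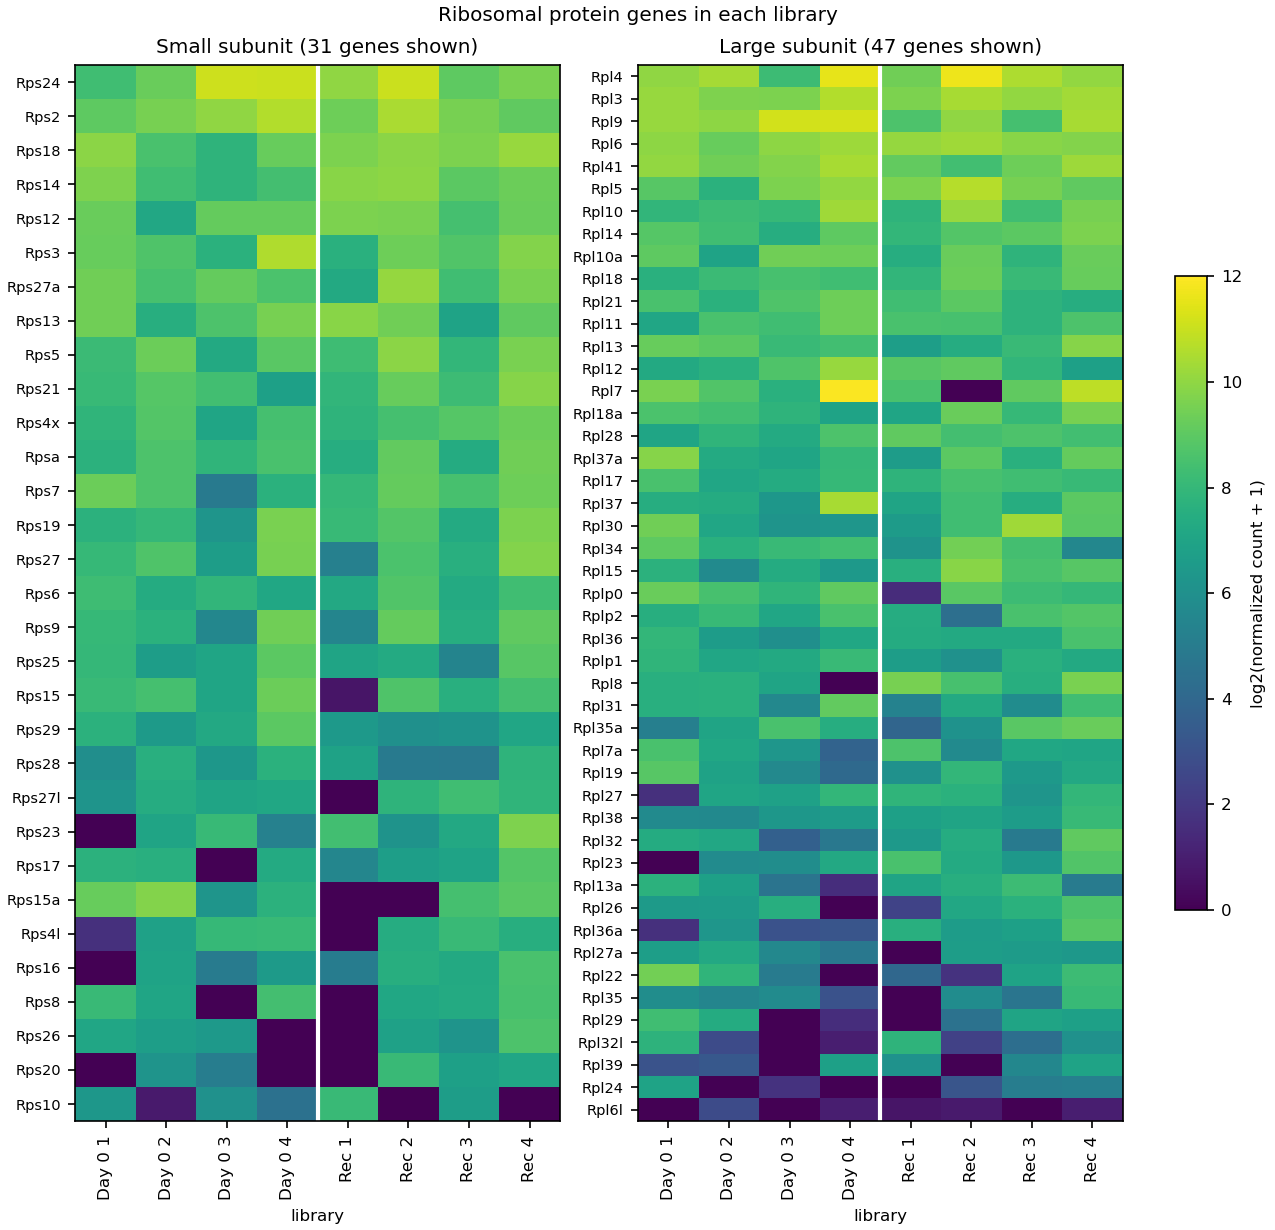
Heat map of log2(normalized count + 1) for the ribosomal protein genes reported here (rows, ordered by mean) in each library (columns, a white line between Day 0 and Recurring), with small subunit genes on the left and large subunit genes on the right. Dark cells at 0 are libraries with no read, most numerous in Recurring replicate 1 with 10.

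Recurring replicate 4 stood at the high end for the members as a group, and which library was lowest depended on the measure. Recurring replicate 4 held the highest value of 27 of the 77 tested members and lay above the member's own median in 62. Recurring replicate 1 held the lowest value, ties included, of 21 and lay above the median in 25. In Day 0 libraries the number above the median was 43, 29, 19 and 43, so Day 0 replicate 3 was lowest by this count, as it was by share of reads, and in Recurring replicates 2 and 3 it was 53 and 34. The mean log2 level over the 79 members was 7.34, 7.38, 6.69 and 7.20 in the Day 0 group and 6.36, 7.56, 7.59 and 8.41 in the Recurring group, so the Recurring group held both the lowest and the highest library. Group means were 7.15 ± 0.32 and 7.48 ± 0.84 (SD, n = 4).

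Other measures also varied between these libraries. CA1 pyramidal marker sums ran from 37260 normalized counts in Recurring replicate 2 to 56722 in Recurring replicate 1. Astrocyte markers, of which 11 of 12 were in the table, summed to between 2787 and 3664 normalized counts in Day 0 libraries and between 2397 and 20058 in Recurring libraries, and the highest sum, with no marker at 0, was in Recurring replicate 1, the library with the most members at 0 and the lowest mean log2 level of members. Microglia markers, of which 5 of 10 were in the table, summed to between 213 and 707 in Day 0 and between 507 and 6056 in Recurring libraries. The highest sum was in Recurring replicate 4, where the share and mean log2 level of members were highest, and the defining gene Tmem119 was at 0 in the 4 Day 0 libraries and in Recurring replicate 1. Interneuron markers, 11 of 12 in the table, summed to between 1408 and 9368 in Day 0 and between 1638 and 14685 in Recurring libraries, with the highest sum in Recurring replicate 2. Oligodendrocyte markers, 9 of 11 in the table, summed to between 1403 and 12109 in Day 0 and between 1437 and 7474 in Recurring libraries. Their highest sum in each group was in replicate 4, the libraries with the highest share of reads on members, and Mog was at 0 in Day 0 replicate 4. Mitochondrially encoded genes took 0.109% and 0.0883% of reads in Recurring replicates 2 and 4, the libraries with the most members above their median, and between 0.0109% and 0.0580% in the other libraries. The next highest astrocyte sum, 10166, was in Recurring replicate 2, where 53 members lay above their median. The part of these measures in the levels of ribosomal protein genes was not tested.

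**Figure D2:**
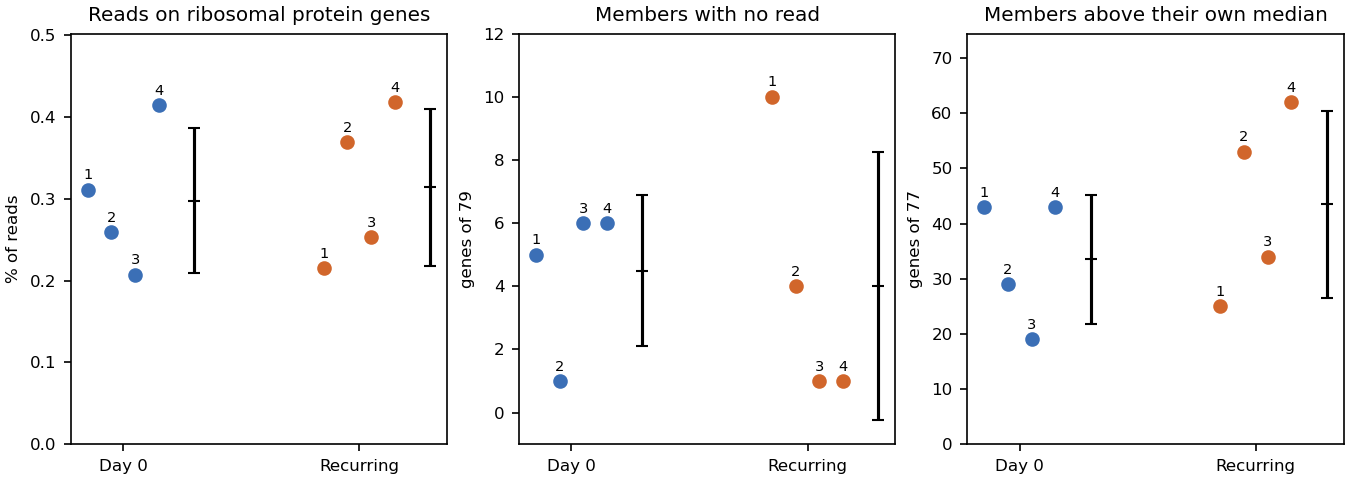
Left, the percent of each library's reads on ribosomal protein genes, centre, the number of the 79 members with no read, and right, the number of the 77 tested members above their own median over libraries. Points are libraries with their replicate number and black marks are the group mean ± SD (n = 4). Recurring replicate 4 is highest on the left at 0.418% and on the right at 62, and Recurring replicate 1 is highest in the centre at 10.

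The comparison of Recurring with Day 0 place cells asked which genes differ between these classes, and no ribosomal protein gene passed it. By limma with Benjamini-Hochberg adjustment over all genes, 0 of 77 members had an adjusted p under 0.05, against 0.0% of the 11078 genes tested, and the lowest adjusted p of a member was 0.981. At an unadjusted p under 0.05 there were 0 members, against 3.62% of all genes (1.88% higher and 1.74% lower in Recurring libraries), and the lowest member was Rpl9 at an unadjusted p of 0.0682. Other limma settings gave between 0 and 3 members at an unadjusted p under 0.05 and 0 at the adjusted threshold, and voom gave 1 and 0.

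The differences leaned to one side without any member standing out by the test. Of the 77 members, 48 (62.3%) had a higher mean in Recurring libraries and 29 a lower one, against 50.1% higher of all genes. The median difference was 0.23, against 0.00 for all genes. In the large subunit 30 of 45 tested members were higher, with a median of 0.33, and in the small subunit 18 of 32, with a median of 0.14. Differences beyond 1 log2 unit were found upwards in 18 members (23.4%, against 23.3% of all genes) and downwards in 7 (9.09%, against 23.7%). The size of the lean depended on single libraries, while the median stayed positive whichever library was left out. It was 0.70 when Recurring replicate 1 was dropped, 0.10 for Recurring replicate 4 and 0.09 for Day 0 replicate 3. The number higher ran from 40 of 75 (Recurring replicate 4 dropped) to 55 of 75 (Recurring replicate 1 dropped).

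Precision differed widely among members. The standard error of the difference ranged from 0.55 for Rpl3 to 2.56 for Rpl29, with a median of 1.34, against 1.78 for all genes. In 0 members did the 95% interval lie within 1 log2 unit of 0, as it did in 1.98% of all genes. In 7 members the interval excluded a 4-fold difference in either direction, against 17.8% of all genes. For most members a 4-fold difference in at least 1 direction was therefore not excluded. From the lowest to the highest library, 76 of the 77 tested members differed by more than 2-fold and 43 by more than 10-fold, with a library under 3 reads counted as 3. The exception at the first limit was Rpl3, at 2.00-fold, and the median over members read in every library was 8.03-fold.

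**Figure D3:**
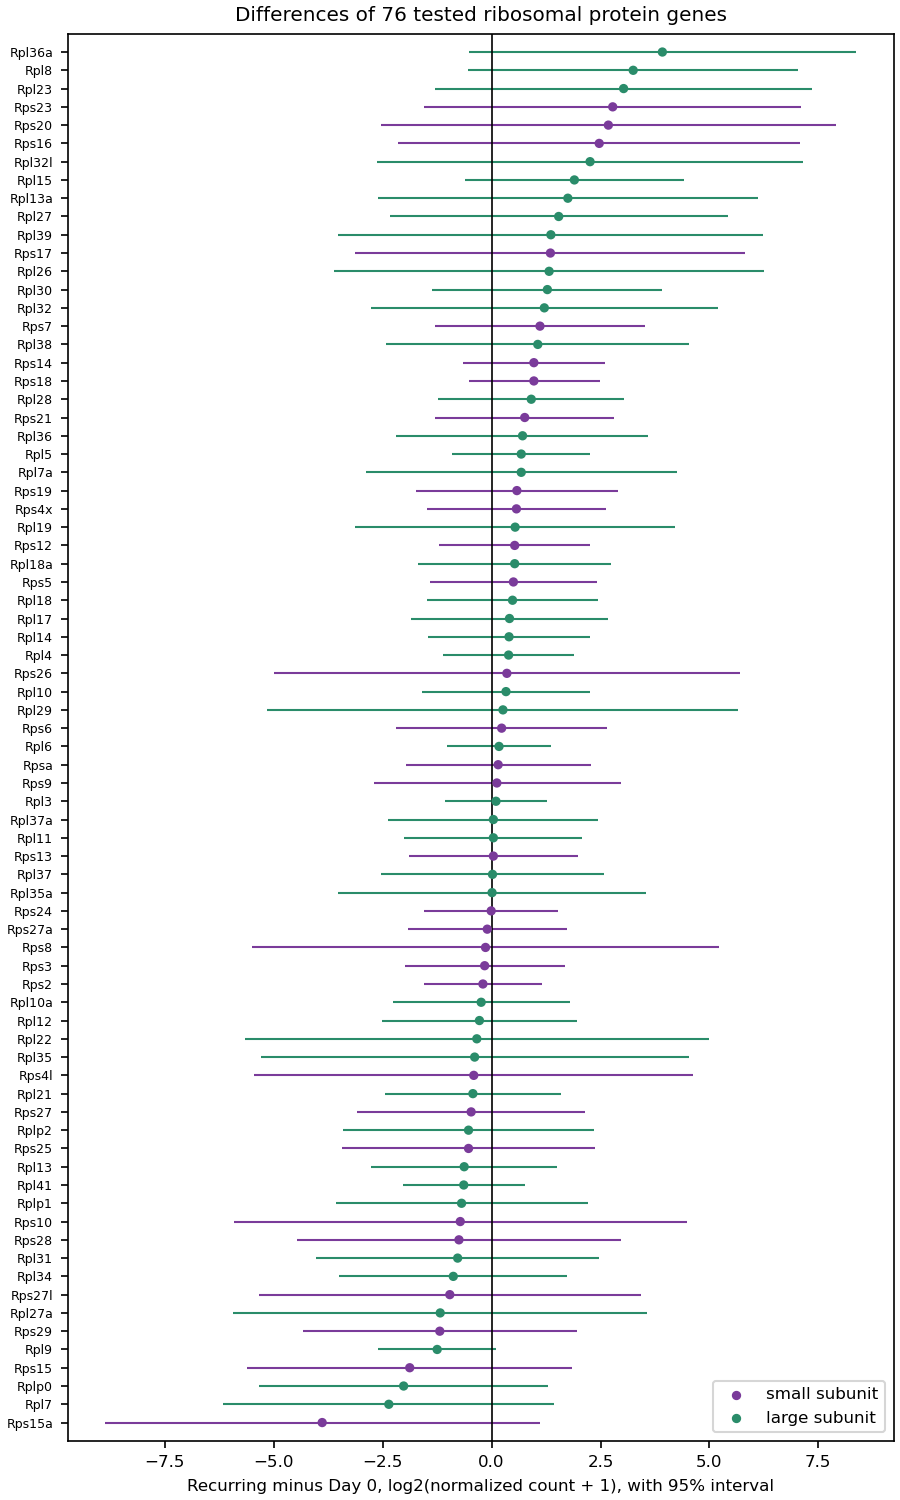
Difference of 76 of the 77 tested ribosomal protein genes, Recurring minus Day 0, on the log2(normalized count + 1) scale with limma's 95% interval, ordered by difference and coloured by subunit. All intervals include 0, from Rps15a at -3.89 to Rpl36a at 3.92.

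Per kilobase of annotated exon, the tested members ranged from 19.4 (Rps20) to 757 normalized counts (Rpl4), with a median of 168. The exon lengths join all annotated transcripts, so genes with retained introns or long minor forms look lower than they are. The 5 highest were Rpl4 at 757, Rpl41, which encodes the smallest ribosomal protein, at 719, Rps2 and Rps21 at 495 each, and Rps15 at 467. Rpl4, whose protein lines the peptide exit tunnel, stood at 1021, 1323, 299 and 2987 normalized counts in Day 0 and 678, 3294, 1482 and 1065 in Recurring replicates. Its 2 highest values were in different groups, and it differed by 0.39 (SE 0.71), or -0.22 without Day 0 replicate 3 and -0.03 without Recurring replicate 2. Rps2, at the messenger RNA entry of the small subunit, stood at 527, 748, 1027 and 1592 against 659, 1423, 746 and 530, so the groups covered the same range. It differed by -0.20 (SE 0.65).

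The best measured members set the narrowest limits. Rpl3, near the peptidyl transferase centre, stood at 1140, 806, 797 and 1583 normalized counts in Day 0 and 792, 1393, 1076 and 1301 in Recurring replicates. All 8 values lay between 792 and 1583 and the groups were interleaved. The difference was 0.10 (SE 0.55, 95% interval -1.07 to 1.27). Rpl6 stood at 993, 593, 986 and 1224 against 1113, 1237, 930 and 886, again interleaved, with a difference of 0.17 (SE 0.57, 95% interval -1.03 to 1.37). For these large-subunit genes a difference beyond 1.37 log2 units lay outside the interval. Rpl41 stood at 1051, 679, 870 and 1361 against 554, 327, 659 and 1214. Its lowest 3 values were Recurring libraries, its difference was -0.64 (SE 0.66), and the groups overlapped through Recurring replicate 4.

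In 3 of the 77 members every Recurring library lay above every Day 0 library, against 1.24% of all genes, and in 0 members did every Recurring library lie below, against 1.17%. Rpl36a and Rpl38 were among the 3. The same 3 were found with reads scaled to the library total and with TMM size factors. With reads of pseudogene symbols added to their namesakes, 2 of them remained, Rpl36a and Rpl38. Rpl38 then stood apart only barely, at 101.6 in Day 0 replicate 3 and 101.7 in Recurring replicate 3. Leaving out 1 library makes such separation more frequent in any gene. It gave between 3 and 7 members wholly above, each set holding these 3, where all genes gave between 2.26% and 3.29%. There were 7 members (9.09%) without Day 0 replicate 1, against 2.74% of all genes, and 7 without Recurring replicate 1, against 3.29%. There were 5 (6.49%) without Day 0 replicate 4, against 2.26%, and 5 without Recurring replicate 3, against 2.64%. Wholly below lay 2 members (2.60%) without Recurring replicate 4, against 2.41%, and 1 without Day 0 replicate 2, against 2.22%, and 0 for each other library left out.

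Rpl36a, a large-subunit protein gene on the X chromosome, had the largest positive difference of the members. It stood at 2.2, 78.9, 7.2 and 8.0 normalized counts in Day 0 replicates and at 190, 97.7, 110 and 474 in Recurring replicates. The Day 0 libraries other than replicate 2 were at 8.0 or below, and Recurring replicate 4 was highest. On the log2 scale this was 3.55 ± 1.96 against 7.47 ± 1.03 (SD, n = 4), a difference of 3.92 (SE 2.11, 95% interval -0.53 to 8.37, limma adjusted p of 0.981).

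Rpl38, which is linked in mice to the translation of Hox messenger RNAs, stood at 52.8, 50.2, 80.1 and 94.2 in Day 0 and 113, 129, 99.6 and 269 in Recurring replicates. The gap between the groups was narrow, from 94.2 in Day 0 replicate 4 to 99.6 in Recurring replicate 3, and the spread within Day 0 was among the smallest of the members, at 6.09 ± 0.44 on the log2 scale. The difference was 1.06 (SE 1.65, limma adjusted p of 0.998). The fitted SE is larger than the spread of its own values because limma draws it towards that of genes at the same level.

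**Figure D4:**
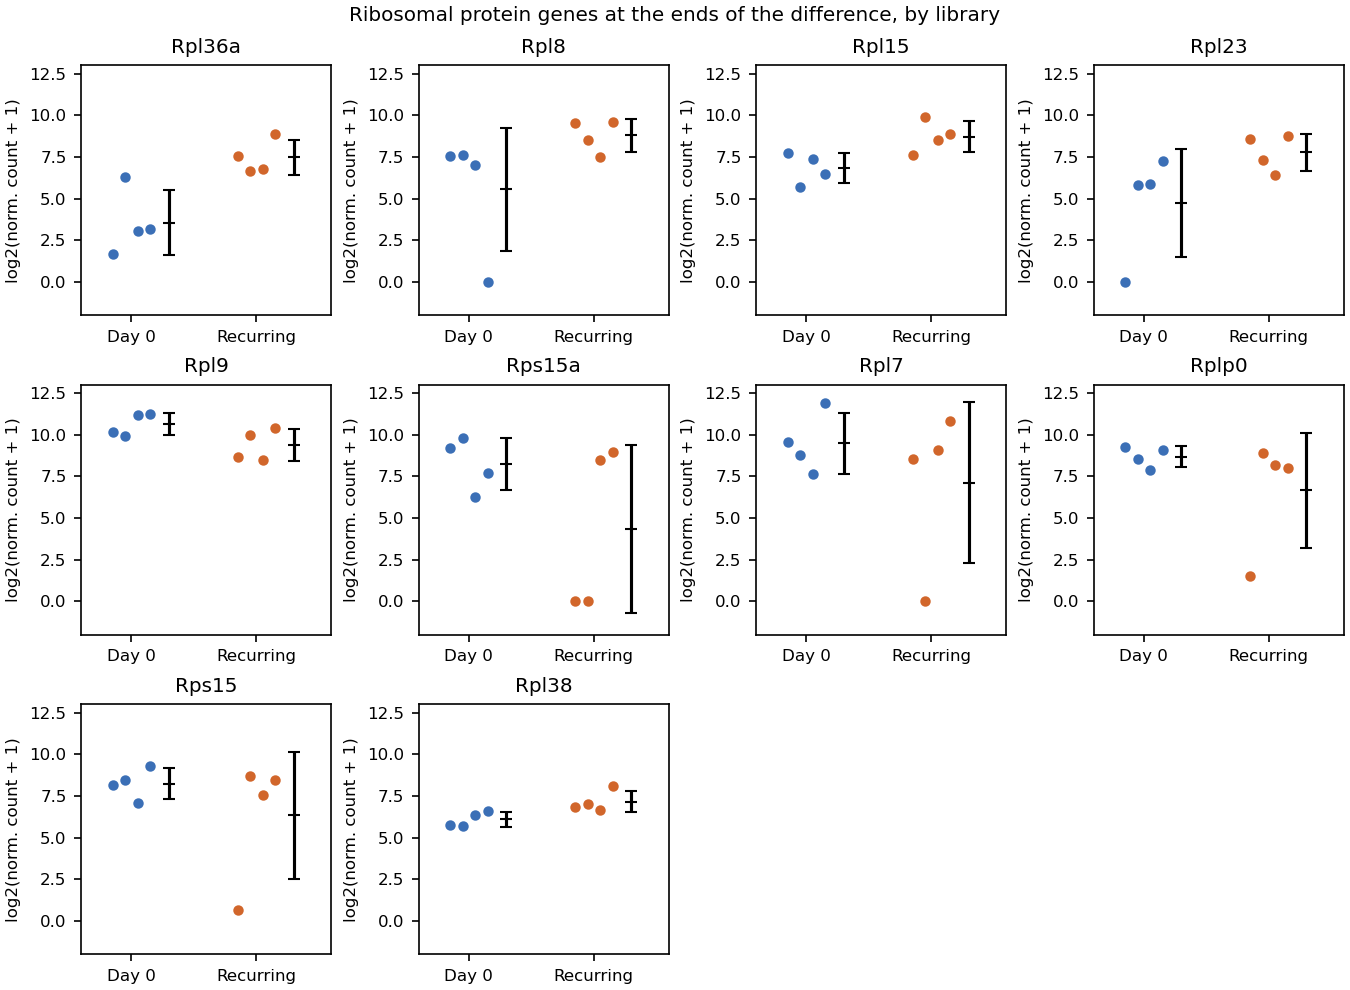
Levels as log2(normalized count + 1) in each library for Rpl36a, Rpl8, Rpl15 and Rpl23, for the 5 lower members with the smallest unadjusted p, and for Rpl38. Points are libraries, and black marks are the group mean ± SD (n = 4). Rpl36a and Rpl38 have no overlap between groups, while the low Recurring points of Rplp0, Rps15, Rps15a and Rpl7 are 1 or 2 libraries at or near 0.

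Rpl8, Rpl15 and Rpl23 were also among the higher members with the smallest p. Rpl8, beside the peptidyl transferase centre, stood at 189, 195, 127 and 0 normalized counts in Day 0 and 744, 366, 182 and 773 in Recurring replicates. Day 0 replicate 4, with no read, set most of its difference of 3.25 (SE 1.79), which was 1.40 without it. Recurring replicate 3 lay within the Day 0 range.

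Rpl15, a gene in which mutations cause Diamond-Blackfan anaemia, stood at 209, 51.8, 164 and 88.2 against 192, 943, 371 and 465. Only Recurring replicate 1 lay below the highest Day 0 library. The difference was 1.90 (SE 1.19, 95% interval -0.62 to 4.42), and it stayed between 1.51 and 2.27 when any single library was left out. Rpl23, which faces the small subunit and binds Mdm2 when ribosome assembly is disturbed, stood at 0, 55.0, 58.6 and 149 against 378, 160, 84.7 and 428. Its difference of 3.03 (SE 2.05) was 1.45 without Day 0 replicate 1, the library with no read.

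Among lower members, Rpl9 had the smallest p. Rpl9, a large-subunit protein at the base of the stalk, stood at 1146.5, 985, 2329 and 2400 normalized counts in Day 0 and 400, 1017, 352 and 1374 in Recurring replicates. The 2 lowest values were Recurring libraries and the 2 highest Day 0 libraries, and the rest were interleaved. The difference was -1.25 (SE 0.64, 95% interval -2.60 to 0.10, limma adjusted p of 0.981), and it lay between -1.60 and -0.94 when any single library was left out. Its 4 pseudogene symbols held 11.7% of the summed reads, and with them added the gene stood between 1128 and 2687 in Day 0 and between 377 and 1480 in Recurring libraries.

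Of the 5 lower members with the smallest p, the other 4 had 1 or 2 Recurring libraries at or near 0. Rps15a stood at 584, 883, 76.5 and 207 normalized counts in Day 0 and at 0, 0, 355 and 489 in Recurring replicates. Its difference of -3.89 (SE 2.36) was the most negative of the members, and -2.43 without either Recurring replicate 1 or 2. Rpl7, with its highest value in Day 0 replicate 4, stood at 769, 432, 198 and 3849 in Day 0 and at 378, 0, 537 and 1793 in Recurring replicates. Its difference of -2.36 (SE 1.80) was 0.01 without Recurring replicate 2. Rps15, near the decoding site in the head of the small subunit, had 1 read in Recurring replicate 1 and between 131 and 640 normalized counts in the 7 other libraries. Its difference of -1.88 (SE 1.77) was 0.00 without that library.

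The proteins of the acidic stalk, which recruits elongation factors, were encoded by 3 members that all had lower mean log2 levels in Recurring libraries, while the mean normalized count of Rplp2 was higher, at 251 against 243. Rplp0, the stalk base, stood at 602, 368, 231 and 538 normalized counts in Day 0 and 1.9, 488, 295 and 251 in Recurring replicates. Recurring replicate 1 held 3 reads and the 3 other Recurring libraries lay within the Day 0 range. The difference was -2.02 (SE 1.57), or -0.30 without Recurring replicate 1. Rplp1 stood at 230, 138, 155 and 277 against 100, 65.4, 194 and 157, a difference of -0.69 (SE 1.37) with overlapping groups. Rplp2 stood at 186, 275, 136 and 374 against 172, 20.2, 377 and 435, and its difference of -0.53 (SE 1.37) was 0.43 without Recurring replicate 2. The low library was thus Recurring replicate 1 for Rplp0 and Recurring replicate 2 for Rplp1 and Rplp2.

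Rpl5 and Rpl11 bind a small ribosomal RNA and, when free, restrain Mdm2 and so stabilise p53. Rpl5 stood at 464, 199, 802 and 1048 normalized counts in Day 0 and 806, 1600, 744 and 534 in Recurring replicates. The highest value was Recurring and the lowest Day 0, with the rest interleaved, and the difference was 0.68 (SE 0.75). Without Day 0 replicate 2 it was 0.21 and without Recurring replicate 2 it was 0.37. Rpl11 stood at 135, 374, 318 and 662 against 372, 361, 216 and 405, a difference of 0.04 (SE 0.97) that changed sign with the total-count scaling, at -0.01.

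Members with known roles beyond peptide synthesis did not pass the test either. Rps6, the target of S6 kinase downstream of mTOR and a common marker of neuronal activity in its phosphorylated form, stood at 307, 168, 241 and 140 normalized counts in Day 0 and 152, 430, 160 and 318 in Recurring replicates. Both groups spanned low and high libraries, and the difference was 0.23 (SE 1.15, 95% interval -2.20 to 2.66). Rpsa, also known as a laminin receptor, stood at 211, 407, 229 and 372 against 179, 559, 165 and 675, so Recurring libraries held both extremes. It differed by 0.15 (SE 1.01). Rps27a, made as a fusion with ubiquitin, stood at 685, 361, 565 and 388 against 153, 1092, 317 and 768, again with both extremes in Recurring libraries, and differed by -0.10 (SE 0.87). Rpl13a, a large-subunit protein that can silence inflammatory messenger RNAs when released, stood at 207, 111, 23.9 and 2.0 against 126, 183, 302 and 30.4. Its difference of 1.75 (SE 2.07) was 0.55 without Day 0 replicate 4, its lowest library.

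Of 18 genes linked to Diamond-Blackfan anaemia, 11 had higher and 7 lower means in Recurring libraries, with a median difference of 0.19, and 0 passed the test. Rps19, the gene most often mutated in that disease, stood at 210, 250, 76.5 and 774 normalized counts in Day 0 and 274, 446, 163 and 786 in Recurring replicates. Replicate 4 was the highest library of each group, and the difference was 0.58 (SE 1.1), or 0.04 without Day 0 replicate 3. Rps26, at the messenger RNA exit, stood at 135, 106, 88.4 and 0 against 0, 115, 73.1 and 400. Each group had 1 library with no read, and the difference was 0.35 (SE 2.54).

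Some ribosomal proteins have paralogs, and of 5 listed here 2 were members. Rps27l, a p53 target, stood at 72.1, 174, 129 and 140 normalized counts in Day 0 and 0, 225, 315 and 229 in Recurring replicates. The 3 Recurring libraries with reads all lay above every Day 0 library, and the difference was -0.96 (SE 2.08) with the library at 0 and 1.04 without it. Its parent Rps27 stood at 265, 412, 103 and 750 against 35.9, 384, 189 and 861, with Recurring replicate 1 again lowest, and its difference of -0.47 (SE 1.24) was 0.39 without that library. Rps4l, a copy typed as a pseudogene, stood at 2.2, 116, 265 and 268 against 0, 170, 275 and 181, a difference of -0.41 (SE 2.39) that was 1.51 without Recurring replicate 1. Its X-linked relative Rps4x stood at 227, 436, 134 and 356 against 222, 356, 458 and 631, with no library near 0, and differed by 0.57 (SE 0.97). Rpl10, an X-linked gene needed for the last step of large subunit maturation, stood at 235, 301, 265 and 1248 against 226, 1116, 314 and 747. In both groups some libraries were several times above the others, and the difference was 0.33 (SE 0.92). Rpl39, a short protein of the exit tunnel, stood at 7.4, 8.8, 0 and 113 against 68.7, 0, 46.6 and 122, with 1 library at 0 in each group and a difference of 1.36 (SE 2.31). Paralogs Rpl3l, Rpl10l and Rpl39l were not among the genes measured.

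Ribosomal protein genes have many near-identical processed copies, and the counting of reads between a gene and its copies is uncertain. At least 1 pseudogene symbol was measured for 43 of the 79 members, and 91 symbols of this kind were measured in all. Their reads per 100 member reads came to 5.60, 4.49, 4.31 and 5.11 in the Day 0 group and 7.51, 2.65, 4.39 and 4.21 in the Recurring group, so the extremes were both Recurring libraries. The copy with the most reads was Rpl34-ps1, with 2474 reads beside 2834 for Rpl34. Rpl34 stood at 523, 193, 280 and 326 normalized counts in Day 0 and 71.8, 687, 336 and 46.7 in Recurring replicates. With the copy added it stood at 909, 421, 373 and 540 against 486, 988, 425 and 301, which brought its lowest libraries, Recurring replicates 1 and 4, much closer to the rest. Rpsa gained most in 1 library: Rpsa-ps9 had 437 reads in Day 0 replicate 4 and at most 6 in any other. These 2 copies were chosen for their reads. Of 20 pseudogene symbols tested, 15 had higher and 5 lower means in Recurring libraries, and 0 passed.

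Ribosomal proteins whose symbols fall outside the rule showed no common direction. Of 7 listed, 6 were tested, 2 with higher and 4 with lower means and a median difference of -0.18. Rack1, a scaffold on the small subunit, stood at 1310, 758, 742 and 1739 normalized counts in Day 0 and 1314, 629, 907 and 1390 in Recurring replicates, interleaved throughout, with a difference of -0.07 (SE 0.59). Rpl7l1 differed by -2.82 (SE 2.15). Rpl22 and its paralog Rpl22l1, which Rpl22 is known to repress, were chosen here after their values were seen. Rpl22 stood at 707, 230, 31.1 and 0 against 14.9, 2.4, 125 and 294, and Rpl22l1 at 138, 239, 222 and 740 against 35.9, 527, 434 and 1216, so both ranged widely within each group.

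The genes that make and use ribosomes were read from lists, and 0 of them passed the test in either direction. Of 17 genes of RNA polymerase I and ribosomal RNA transcription, 6 had higher and 11 lower means, with a median difference of -0.19. Ubtf, the factor that holds ribosomal DNA open, stood at 1583, 1206, 693 and 1294 normalized counts in Day 0 and 593, 322, 481 and 601 in Recurring replicates. Every Recurring library lay below every Day 0 library, as in 1.17% of all genes. Ubtf was named for the smallest p of this list, so that share does not measure how rare its separation is. The difference was -1.24 (SE 0.65, limma adjusted p of 0.981). Taf1d, a subunit of its promoter factor, differed by -0.98 (SE 0.63). Of 55 tested genes of ribosomal RNA processing and ribosome assembly, 20 were higher and 35 lower, with a median of -0.24. Nmd3, the export adaptor of the large subunit, stood at 1897, 1002, 2113 and 1583 against 5.6, 1159, 248 and 358, with Recurring replicate 1 far below the rest, and differed by -3.30 (SE 1.22, limma unadjusted p of 0.0151, adjusted p of 0.981). Riok3, the most abundant of that list, differed by -0.24 (SE 0.45). Ribosomal protein genes thus had more members higher and these 2 lists more members lower, a contrast that was not tested.

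Translation factors and the regulators of TOP messenger RNAs were evenly split. Of 36 initiation factors 18 were higher and 18 lower, with a median difference of 0.05. Eif4a2, the neuronal helicase of that list, stood at 11.89 ± 0.27 in Day 0 and 12.5 ± 0.78 in Recurring libraries (log2, SD, n = 4), and Eif3c differed by -3.23 (SE 1.28, limma adjusted p of 0.981). Of 12 elongation and termination factors 7 were higher and 5 lower, with a median of 0.18, and Abce1, which recycles ribosomes, differed by 0.78 (SE 0.49). Eif5a2 had reads in 1 Day 0 and 3 Recurring libraries and differed by 4.38 (SE 2.69). Of 16 regulators of TOP messenger RNA translation 8 were higher and 8 lower, with a median of 0.02, and the binding proteins Tial1 and Tia1 differed by 0.44 (SE 0.28) and 0.06 (SE 0.29).

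Host transcripts of small nucleolar RNAs share the pyrimidine start of ribosomal protein genes, and of 14 tested 9 were higher and 5 lower, with a median of 0.19. Snhg5 stood at 384, 410, 32.3 and 101 normalized counts in Day 0 and 865, 1381, 746 and 1502 in Recurring replicates. Every Recurring library lay above every Day 0 library, as in 1.24% of all genes. Snhg5 too was named for the smallest p of its list, so that share does not measure how rare its separation is. The difference was 2.82 (SE 0.98, limma unadjusted p of 0.0107, adjusted p of 0.981). Snhg11, the most abundant of the list, differed by 0.03 (SE 0.25).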

How the data were processed

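Nuclear RNA of 8 libraries, 4 a group, was prepared with SMART-Seq mRNA chemistry, as the labels state. Per the submitters' processing notes STAR, HTSeq and GRCm39 were used, in versions not given in the sources used here. The authors deposited a signal for each gene in each library. Each value proved to be whole reads times a constant of the gene, with no correction for depth: 95910 of 95910 values above 0 came out whole within 0.1 read once the constant was divided out (largest deviation 0.0492). The plan had assumed depth-corrected values, so library size factors (median of ratios) were applied to these reads first. Genes with 10 or more in at least 4 libraries were compared on log2(normalized count + 1) in limma 3.58.1 (R 4.3.3) using its variance trend, Benjamini-Hochberg adjustment over all 11078 genes and a threshold of 0.05. The fit was also run on simulated counts, but with a smaller spread between libraries than seen here. That run therefore cannot show how the fit behaves at the spread of these libraries. Members and lists were chosen with earlier results of these data known. Named members were those with the smallest p (5 a direction), smallest SE (5) or highest level per kilobase (5), those with no overlap, and a set of known roles. From each list the genes with the smallest p and the highest mean were taken. Exon lengths came from GENCODE vM21 and promoters from RefSeq (GRCm38.p6). Python 3.11.15 with pandas 2.3.3 was used for the rest. The values of 1 member are not reported here, though counts over the members include it.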

Additional observations from a re-analysis of the deposited data

Results flagged for a closer look

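Of 76 groups of 4 libraries checked, 7 had 1 library far from the other 3. The cutoff marks about 1 in 20 groups of independent, normally spread values. Values here include zeros, and some genes were named for small p in the same data. That rate therefore does not apply, and no excess can be read from the count. All values are log2 levels of the library standing apart. Recurring replicate 1 did so in 4: Rplp0 at 1.52, Rps15 at 0.70, and Rps4l and Rps27l at 0, below the other Recurring libraries. Day 0 replicate 4 did so in the remaining 3: Rpl8 and Rps26 at 0, below the other Day 0 libraries, and Rpl10 at 10.29, above them.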

How the results depend on the processing

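Under every alternative run, 0 ribosomal protein genes were called. Over all genes limma without a variance trend called 2. The pyrimidine run was held by 21.7% of member promoters when searched within 10 bases of the start, against 5.24% of all promoters. The number of members higher was 34 of 52 when a normalized count of 10 was asked of all 8 libraries and 52 of 77 with library weights, and the median difference over settings other than leaving out a library ranged from 0.16 to 0.33. Of 33 named members, 17 kept their sign in every setting, and 37 of 578 alternative values had the other sign. With library weights the difference was -0.11 for Rpsa, -0.05 for Rpl11, 0.00 for Rps27a, -0.07 for Rps26 and 0.62 for Rps4l. Scaled to the library total it was -0.01 for Rpl11, and with voom -0.02 for Rps26. Leaving out 1 library at a time gave ranges that crossed 0: -3.59 to 0.01 for Rpl7, -2.67 to 0.00 for Rps15, -0.22 to 0.89 for Rpl4, -0.49 to 0.08 for Rps2, -0.02 to 0.31 for Rpl3, -0.04 to 0.31 for Rpl6, -0.05 to 0.45 for Rps6, -1.03 to 0.43 for Rplp2, -0.20 to 0.48 for Rpsa, -0.38 to 0.38 for Rpl11, -0.53 to 0.41 for Rps27a, -1.34 to 2.16 for Rps26, -0.06 to 0.89 for Rpl10, -1.13 to 0.39 for Rps27, -1.91 to 1.51 for Rps4l and -1.73 to 1.04 for Rps27l. The causes were not tested. Counts of members with no overlap, and lists without the members typed as pseudogenes, were alternatives chosen after seeing the data. The planned edgeR and DESeq2 fits were not run. No paired analysis was possible because replicates were numbered in the order of deposit, so the numbers pair no libraries. In the 22 members at 0 in at least 1 library, up to 3 reads cannot be told from none there, and the zeros did not follow depth, since the deepest library held the most.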
